A study of Homo sapiens with 8 samples.

Results

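MHC class I antigen presentation was followed through 9 genes of the read-count table, taken by name: the heavy chains HLA-B, HLA-C, HLA-E and HLA-F, the light chain B2M, the peptide transporter subunits TAP1 and TAP2, the loading factor TAPBP and the transactivator NLRC5. They are 9 of the 23393 genes of the table, and all 9 were among the 15262 genes that passed the filter on low counts. RNA-seq was made from MDA-MB-231, an established human triple-negative breast cancer line, and from clone 27 of its ρ0 derivative, a line depleted of mitochondrial DNA. Each line was grown in DMEM with high glucose and 10% FBS, without further treatment (control) or for 48 h with 0.3 µg/mL of arginine deiminase (ADI), which breaks arginine down to citrulline, and 2 libraries were made from each of the 4 groups. The study's methods give a medium lacking arginine instead of ADI, and describe a ρ0 line received from another laboratory and kept in pyruvate, uridine and ethidium bromide. A single ρ0 clone was sequenced, so that what belongs to the loss of mitochondrial DNA, to the clone and to its culture cannot be told apart. The labels do not say that the 2 libraries of a group came from separate cultures, and p-values then measure the spread between these libraries, which may be technical.

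MHC class I molecules carry short peptides from inside the cell to its surface, where CD8+ T cells inspect them. Proteasomes cut proteins into peptides, the transporter TAP (TAP1 with TAP2) moves the peptides into the endoplasmic reticulum, and tapasin (TAPBP) holds the empty heavy chain with β2-microglobulin (B2M) beside TAP until a peptide is bound. HLA-B and HLA-C are classical heavy chains. HLA-E presents mainly leader peptides of other class I chains and is read by the inhibitory NK cell receptor CD94/NKG2A, and HLA-F is a non-classical chain that NK cell receptors also bind. NLRC5 is drawn to class I promoters by an enhanceosome of RFX, NF-Y and CREB/ATF proteins and raises their transcription, and interferons and NF-κB act on many of the same promoters.

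The promoters of the members differ in the elements they carry, and 5 are shown. Of these, HLA-B and HLA-C received the same calls in the main fit of each comparison that follows. After ADI in parental cells, where neither passed the test, their log2 fold changes had opposite signs (0.18 and -0.09). How the elements bear on the responses was not tested. Each is the 250 bases before the RefSeq transcription start on build GRCh38.p14, written 5′ to 3′ on the strand of the gene. Capitals mark matches, on either strand, to 5 patterns chosen with these promoters in view. The interferon-response pattern is GAAA, any 2 bases and GAAA again, and GAAGTGAAA is a shorter form of it. The NF-κB pattern is GGG, any 2 bases, T, any 2 bases and CC. TGACGC marks the X2 element, and CCAAT, which reads as ATTGG on the opposite strand, the Y element bound by NF-Y. The windows lie at chr6:31357180-31357429 on the minus strand (HLA-B), chr6:31272093-31272342 on the minus strand (HLA-C), chr6:29723184-29723433 on the plus strand (HLA-F), chr6:33314079-33314328 on the minus strand (TAPBP) and chr15:44711267-44711516 on the plus strand (B2M).
HLA-B: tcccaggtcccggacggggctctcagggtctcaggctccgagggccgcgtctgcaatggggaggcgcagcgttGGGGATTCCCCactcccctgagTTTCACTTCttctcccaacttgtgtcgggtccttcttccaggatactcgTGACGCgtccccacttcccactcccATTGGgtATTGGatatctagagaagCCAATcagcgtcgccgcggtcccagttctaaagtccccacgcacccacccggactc
HLA-C: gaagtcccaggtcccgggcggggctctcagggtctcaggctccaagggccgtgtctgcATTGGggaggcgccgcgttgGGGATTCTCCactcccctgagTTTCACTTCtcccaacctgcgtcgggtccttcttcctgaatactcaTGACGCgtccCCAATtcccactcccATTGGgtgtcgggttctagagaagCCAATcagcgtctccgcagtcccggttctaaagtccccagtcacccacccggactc
HLA-F: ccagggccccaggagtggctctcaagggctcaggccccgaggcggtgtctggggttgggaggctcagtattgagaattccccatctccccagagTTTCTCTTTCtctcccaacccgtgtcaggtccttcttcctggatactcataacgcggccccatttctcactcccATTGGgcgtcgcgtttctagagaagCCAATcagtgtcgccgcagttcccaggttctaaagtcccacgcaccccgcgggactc
TAPBP: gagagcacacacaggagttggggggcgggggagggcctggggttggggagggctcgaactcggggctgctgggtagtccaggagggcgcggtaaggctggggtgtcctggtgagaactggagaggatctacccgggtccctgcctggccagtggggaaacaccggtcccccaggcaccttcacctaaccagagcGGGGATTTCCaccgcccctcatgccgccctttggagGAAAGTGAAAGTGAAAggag
B2M: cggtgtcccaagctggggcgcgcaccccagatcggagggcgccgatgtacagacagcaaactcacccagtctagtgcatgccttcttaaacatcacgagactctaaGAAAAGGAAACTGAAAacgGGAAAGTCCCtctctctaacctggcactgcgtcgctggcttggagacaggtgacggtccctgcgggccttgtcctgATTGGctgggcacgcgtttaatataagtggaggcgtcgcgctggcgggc

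The HLA-B and HLA-C windows were 89.0% identical over their alignment, HLA-B and HLA-F 80.4%, and HLA-B and B2M 49.5%. HLA-B and HLA-C each held 1 GAAGTGAAA, which 0.439% of 35116 RefSeq promoter windows of this length hold, 1 TGACGC (7.67% of windows) and 3 and 4 copies of CCAAT (32.0%). HLA-F held the interferon-response pattern once (3.02% of windows) and CCAAT in 2 places, with no match to the NF-κB pattern, TGACGC or GAAGTGAAA in this window. TAPBP and B2M each held 2 overlapping copies of the interferon-response pattern and 1 of the NF-κB pattern (19.7% of windows). HLA-C held the NF-κB pattern once, and the 2 matches of HLA-B overlap each other. In windows not printed, TAP1 held 2 overlapping interferon-response patterns, 1 NF-κB pattern and 1 CCAAT before the start listed first for it, and TAP2 held 1 interferon-response pattern and 1 TGACGC. A match describes letters and is no evidence of binding. The start used by these cells was not measured.

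Levels are given as CPM, the counts of a gene scaled to libraries of equal size by TMM, which compares 1 gene between libraries. To compare genes with each other, CPM were divided by the length in kilobases of the longest coding transcript of the gene in GENCODE release 29. On that scale, B2M (306 ± 8.91, SD, n = 2) and HLA-B (251 ± 7.19) led in parental control cells, followed by HLA-E (154 ± 1.36), HLA-C (80.7 ± 4.77), TAP2 (55.8 ± 0.543), TAPBP (47.2 ± 1.58), TAP1 (32.1 ± 0.878), HLA-F (6.56 ± 0.306) and NLRC5 (3.39 ± 0.145). Each neighbouring pair in that order differed by more than its SDs. The order was not the same in ρ0 control cells, where HLA-C stood at 181 ± 53.3 and HLA-E at 141 ± 0.968 CPM per kilobase, TAP1 at 39.9 ± 10.6 and TAP2 at 37.2 ± 1.16, and HLA-F at 8.68 ± 5.04 and NLRC5 at 5.79 ± 0.00794, and none of these 3 pairs differed by more than its spread. TAPBP (81.3 ± 25.6) was above TAP2 there, by more than their SDs. In ρ0 cells after ADI, HLA-B (922 ± 19.9) was above B2M (818 ± 3.72). With the median instead of the longest transcript, TAPBP moved from place 6 to place 4 and HLA-F fell below NLRC5 in parental control cells, so the middle and the end of the order depend on the transcript taken.

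The libraries held between 25259503 and 31022155 counts. Together, the 9 members took between 0.218% and 0.226% of the counts of each parental library and between 0.297% and 0.446% in ρ0 cells. The ρ0 control libraries stood apart from each other: their biological coefficient of variation was 25.1%, against 5.16%, 2.29% and 1.84% within parental control, parental ADI and ρ0 ADI. ρ0 control replicate 1 exceeded replicate 2 in HLA-B, HLA-C, HLA-F, B2M, TAP1 and TAPBP. Interferon-stimulated genes were likewise higher in it, with IFIT1 at 276 against 33.2 CPM and ISG15 at 413 against 108 CPM. Values that rest on this pair and change with it are therefore also given without each of its libraries, where the library that remains is assumed to vary like the other groups.

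**Figure D1:**
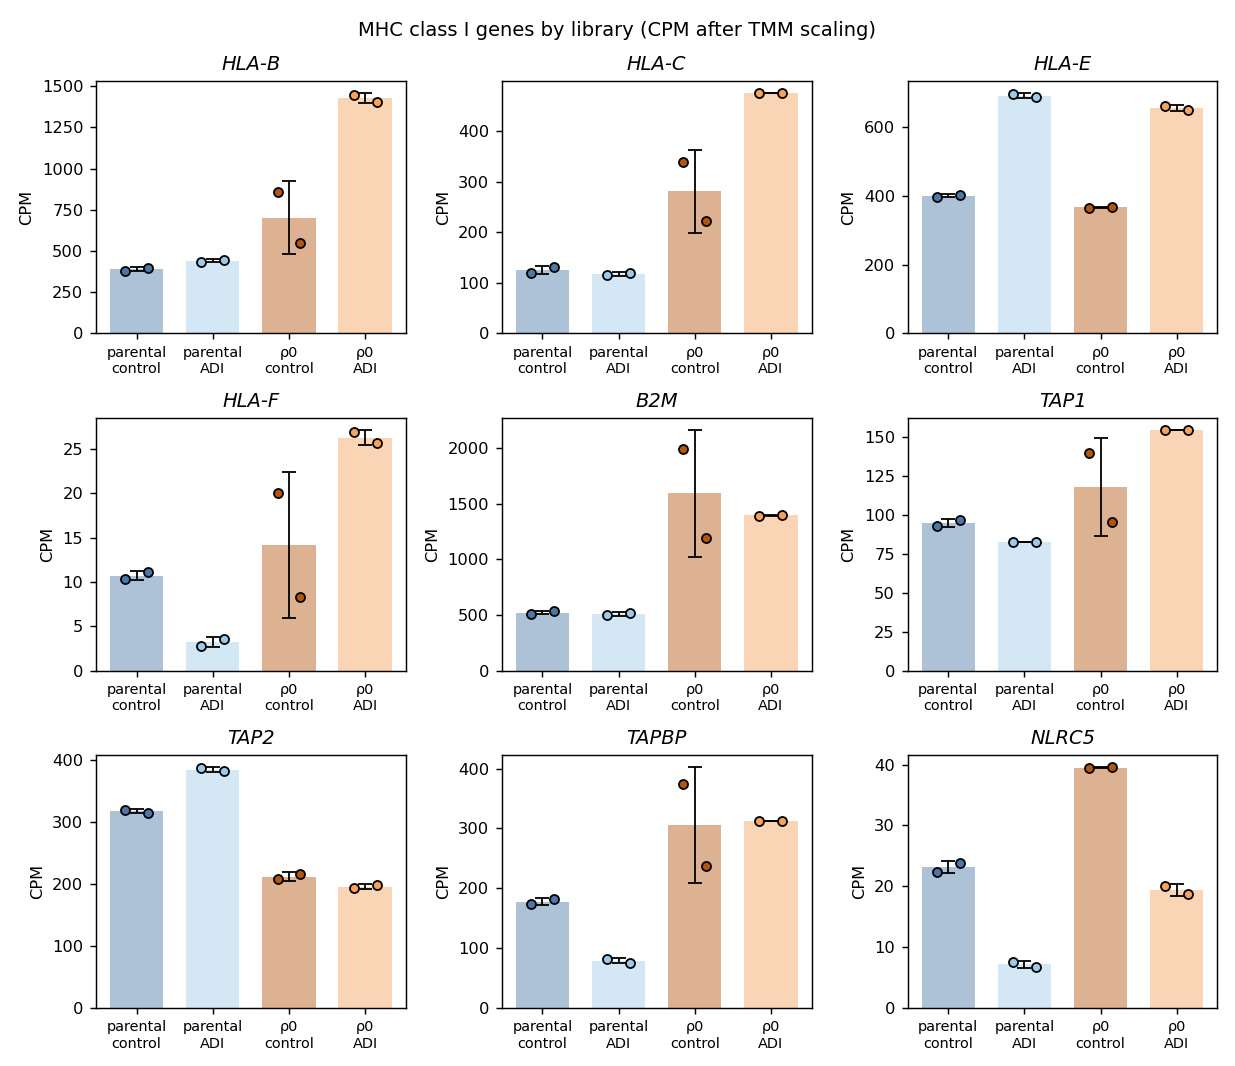
CPM (vertical axis, from 0) of the 9 members in each library (points), with the mean (bar) and SD (error bar) of the 2 libraries of each group. NLRC5, HLA-F and TAPBP were lower in parental cells after ADI, HLA-E was higher after ADI in both lines, and the ρ0 control libraries lay far apart for 6 of the genes, such as B2M at 1992 and 1190 CPM.

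The first comparison asks how parental cells, which make little ASS1 and depend on external arginine, changed in class I genes after 48 h of ADI. NLRC5, HLA-F and TAPBP fell, HLA-E and TAP2 rose, and B2M, HLA-B, HLA-C and TAP1 did not pass the test (edgeR's quasi-likelihood test, Benjamini-Hochberg adjusted p under 0.05). Thus 2 of 9 members rose and 3 fell, beside 30.4% and 35.5% of all tested genes. The 3 that fell also passed the fold threshold of a DEG (a log2 fold change below -1), as 22.1% of all tested genes did, and none of those that rose did, against 12.7%. The median log2 fold change of the 9 was -0.09, and that of all tested genes -0.07.

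NLRC5 stood at 22.4 and 23.8 CPM in parental control libraries and at 7.56 and 6.74 CPM after ADI. The groups were well separated, and the level fell 3.23-fold (log2 fold change -1.69 ± 0.11, SE; adjusted p = 1.79e-05). HLA-F went from 10.4 and 11.1 CPM to 2.81 and 3.62 CPM, which are 71 and 102 counts. It fell by 1.73 ± 0.39 on the log2 scale (adjusted p = 0.00521). Reads of HLA-F and of its antisense gene HLA-F-AS1, which fell too (log2 fold change -2.09), overlap on opposite strands and cannot be told apart if the counting ignored strand. TAPBP was at 173 and 182 CPM in control and at 82.3 and 75.6 CPM after ADI, 2.25-fold lower (log2 fold change -1.17 ± 0.19, adjusted p = 0.0011).

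HLA-E moved the other way, from 397 and 402 CPM to 696 and 685 CPM, a rise of 1.73-fold (log2 fold change 0.79 ± 0.07, adjusted p = 6.15e-05). TAP2 was at 319 and 315 CPM in control and at 387 and 381 CPM after ADI, a smaller rise (0.28 ± 0.07, adjusted p = 0.00993). The TAP2 call was lost under upper quartile scaling (0.16, adjusted p = 0.0894) and total counts (0.11, adjusted p = 0.202), which moved the median of all genes to -0.19 and -0.23, and over all alternatives its adjusted p ran from 3.44e-07 to 0.202. TAP2 is also the member that shares most sequence with other annotated genes. Of the 50-base windows of its longest coding transcript, 35.8% occur in 2 other genes, against at most 6.71% for the other members. Exons of TAP2 overlap those of another annotated gene, AL669918.1, on the same strand.

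B2M, HLA-B, HLA-C and TAP1 gave small differences that did not pass the test. B2M had 511 and 532 CPM in control and 496 and 520 CPM after ADI, with overlapping groups and a log2 fold change of -0.04 (95% interval -0.52 to 0.44). HLA-C had 120 and 131 CPM in control and 116 and 120 CPM after ADI (-0.09, interval -0.50 to 0.32), and the groups all but touched. HLA-B, at 381 and 397 CPM and then 434 and 446 CPM, was a little higher in both treated libraries (0.18, interval -0.25 to 0.61, adjusted p = 0.42), and TAP1, at 93.3 and 96.9 CPM and then 82.6 and 82.5 CPM, was a little lower (-0.20, interval -0.57 to 0.17, adjusted p = 0.287). Both results depended on which libraries entered the fit and on their weights. The main fit drew the spread of a gene from all 8 libraries. These include the ρ0 control pair, at 860 and 546 CPM for HLA-B and 140 and 95.8 CPM for TAP1. Each gene was called in 4 of 18 alternatives. With limma-voom and 1 weight per group, HLA-B was called higher (0.18, adjusted p = 0.00629) and TAP1 lower (-0.20, adjusted p = 0.00312). The part of the ρ0 control pair in the missed calls was not tested beyond such fits. In a fit to the 4 parental libraries alone, HLA-B was called higher (0.21, adjusted p = 0.00035) and TAP1 lower (-0.17, adjusted p = 0.00655), within ranges over all alternatives of 2.17e-05 to 0.941 and 0.000337 to 0.508.

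In ρ0 cells the same treatment gave another picture. HLA-B, HLA-C and HLA-E rose, NLRC5 fell, and HLA-F, TAP1, TAP2, TAPBP and B2M did not pass the test. The 3 rises among 9 members stand beside 19.2% of all tested genes, and the 1 fall beside 22.1%. HLA-B passed the fold threshold upward (4.22% of all genes) and NLRC5 downward (8.19%). The median log2 fold change of the members was 0.39, against -0.02 over all tested genes.

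HLA-B was at 860 and 546 CPM in ρ0 control libraries and at 1449 and 1405 CPM after ADI. Every treated library was above both controls, although the controls differed widely, and the level rose 2.03-fold (log2 fold change 1.02 ± 0.19, adjusted p = 0.00442). Without ρ0 control replicate 1 or 2 the rise was 1.39 or 0.74. In the alternatives other than leaving out a library, it ran from 0.95 to 1.06, on both sides of the fold threshold. The adjusted p was at most 0.0457 in these. HLA-C followed, with 340 and 222 CPM in control and 476 and 475 CPM after ADI (0.76 ± 0.18, adjusted p = 0.012), and the rise was 1.10 without ρ0 control replicate 1 and 0.50 without replicate 2. That call was lost in the fit to the 4 ρ0 libraries alone (adjusted p = 0.0715) and without either ρ0 ADI library (0.0645 and 0.0629), over a range of 3.13e-12 to 0.0715.

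HLA-E rose in ρ0 cells as well, from 364 and 368 CPM to 660 and 648 CPM (0.84 ± 0.07, adjusted p = 0.000229), and its ρ0 control libraries differed little. NLRC5 had 39.5 and 39.6 CPM in control and 20.1 and 18.7 CPM after ADI, a 2.04-fold fall (-1.03 ± 0.10, adjusted p = 0.000421). For HLA-E and NLRC5 the spread between the ρ0 control libraries was no larger than in parental cells.

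The remaining members did not pass the test, most of them with ρ0 control libraries that lay far apart. HLA-F was at 20.02 and 8.36 CPM in control and at 26.9 and 25.7 CPM after ADI, and both treated libraries were above both controls (0.89, interval 0.09 to 1.70, adjusted p = 0.0738). HLA-F was called higher without ρ0 control replicate 1 (1.66) and without replicate 2 (0.41), without the filter on low counts, with DESeq2, with limma-voom and with limma-voom weights, and over all alternatives its adjusted p ran from 4.65e-10 to 0.217. TAP1, at 140 and 95.8 CPM and then 155 in each treated library, gave 0.39 (interval 0.02 to 0.76, adjusted p = 0.0844). TAP1 was called higher without ρ0 control replicate 1 (0.69, adjusted p = 1.91e-09), without replicate 2 (0.15, adjusted p = 0.0141) and with limma-voom weights (0.42, adjusted p = 0.0403), over a range of 1.91e-09 to 0.227. TAP2 showed 207 and 216 CPM, then 193 and 198 CPM (-0.12, interval -0.28 to 0.05), and was called lower without ρ0 control replicate 1 alone (-0.15, adjusted p = 0.0108; range 0.0108 to 0.64).

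B2M and TAPBP had treated libraries that lay between the control libraries. B2M was at 1992 and 1190 CPM in ρ0 control and at 1390 and 1399 CPM after ADI (-0.19, interval -0.67 to 0.29), and the direction turned with the library left out: 0.23 without ρ0 control replicate 1 and -0.50 without replicate 2, each past the test. TAPBP was at 374 and 238 CPM and then at 312 in each treated library (0.03, interval -0.40 to 0.46), with 0.39 and -0.25 in the same fits, again each past the test. No direction can be given for either gene in ρ0 cells.

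**Figure D2:**
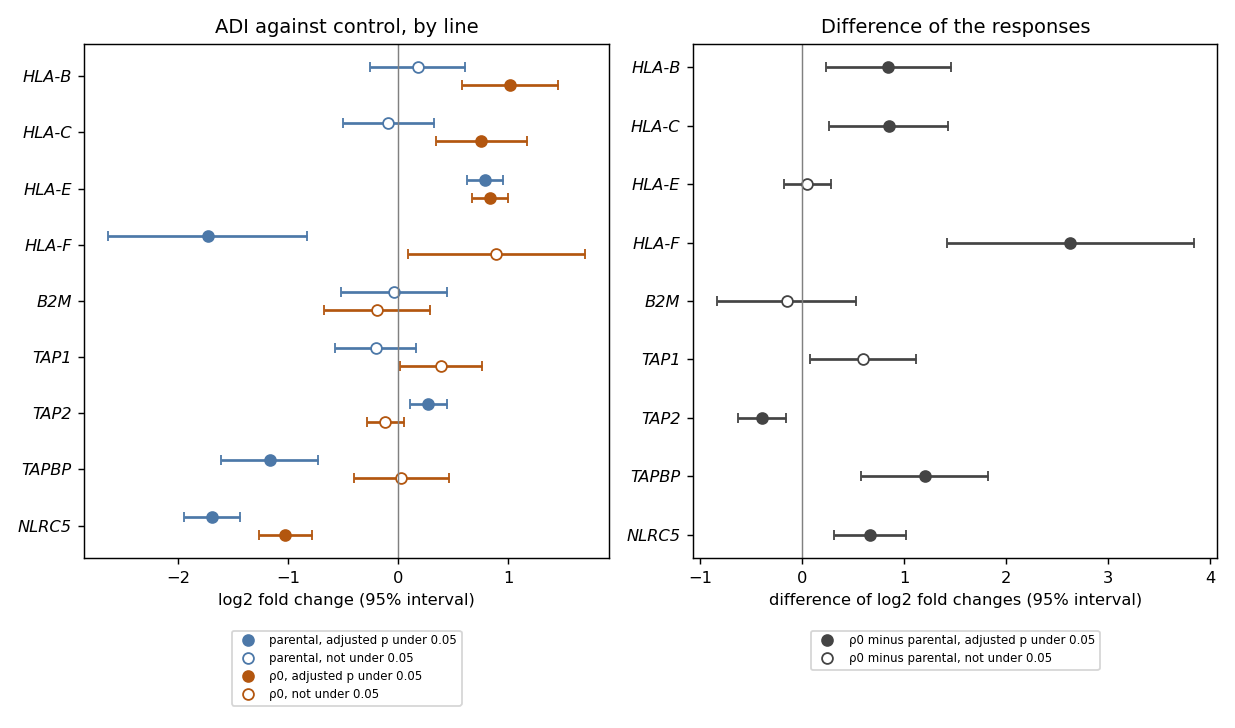
Left, log2 fold change of each member after ADI in parental (blue) and ρ0 (orange) cells; right, the difference of these responses, ρ0 minus parental. Points are edgeR estimates and bars 95% intervals, and filled points passed the adjusted p of 0.05: HLA-E rose by 0.79 and 0.84 in the lines, while HLA-F differed between them by 2.63.

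Whether the lines responded differently was tested as an interaction (ρ0 minus parental response) without a fold threshold. HLA-B, HLA-C, HLA-F, TAPBP and NLRC5 responded more positively in ρ0 cells and TAP2 more negatively. These 5 and 1 of 9 members stand beside 21.6% and 18.8% of all tested genes. The difference was 2.63 ± 0.52 for HLA-F (adjusted p = 0.00702), 1.20 ± 0.26 for TAPBP (adjusted p = 0.0107), 0.85 ± 0.25 for HLA-C (adjusted p = 0.0306), 0.84 ± 0.26 for HLA-B (adjusted p = 0.0372), 0.67 ± 0.15 for NLRC5 (adjusted p = 0.0113) and -0.39 ± 0.10 for TAP2 (adjusted p = 0.0187).

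The sense of the difference was not the same for each gene. NLRC5 fell in both lines, less steeply in ρ0 cells. TAPBP and HLA-F fell in parental cells without passing the test in ρ0 cells, and HLA-B and HLA-C rose in ρ0 cells without passing it in parental cells. HLA-E gave a difference of 0.05 (interval -0.18 to 0.28), and B2M one of -0.15 with a wide interval (-0.84 to 0.53). TAP1 missed the threshold (0.59, interval 0.07 to 1.12, adjusted p = 0.0691). Without ρ0 control replicate 1 or 2, the difference was 0.27 or -0.50 for B2M and 0.90 or 0.32 for TAP1, each past the test.

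The HLA-F difference kept its call in all 8 fits that left out a library, TAPBP in 7 of 8 (adjusted p = 0.0519 without parental ADI replicate 2) and NLRC5 in 6 of 8 (0.0641 without that library and 0.0690 without ρ0 ADI replicate 1). The calls for HLA-B, HLA-C and TAP2 held in 2 of 8, those without a ρ0 control library. With any parental or any ρ0 ADI library left out, the adjusted p lay between 0.0960 and 0.122 for HLA-B, between 0.0746 and 0.104 for HLA-C and between 0.0611 and 0.0939 for TAP2, while the differences of HLA-B and HLA-C stayed between 0.79 and 0.91. Without a ρ0 control library they ran from 0.53 to 1.21, and over all alternatives the adjusted p of HLA-B, HLA-C and TAP2 ran from 1.63e-12, 3.13e-11 and 4.89e-06 up to these values.

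Untreated lines were compared next. B2M, HLA-B, HLA-C, TAPBP and NLRC5 were higher in ρ0 control than in parental control cells, and TAP2 was lower. The 5 higher and 1 lower among 9 members stand beside 30.5% and 31.8% of all tested genes. B2M and HLA-C also passed the fold threshold (13.6% of all genes did upward). B2M, at 511 and 532 CPM in parental and 1992 and 1190 CPM in ρ0 control libraries, was 3.05-fold higher (1.61 ± 0.21, adjusted p = 0.000417), and remained 1.19 higher on the log2 scale without ρ0 control replicate 1. HLA-C was higher by 1.16 ± 0.18 (adjusted p = 0.000905), HLA-B by 0.85 ± 0.19 (adjusted p = 0.00517), TAPBP by 0.78 ± 0.19 (adjusted p = 0.00784) and NLRC5 by 0.78 ± 0.10 (adjusted p = 0.000431). Without ρ0 control replicate 1 the difference was 0.49 for HLA-B, 0.42 for TAPBP and 0.83 for HLA-C, and without replicate 2 it was 1.20, 1.13 and 1.49, and all 3 remained called in both fits. TAPBP lost its call without parental control replicate 1 (0.75, adjusted p = 0.0579; range over alternatives 1.02e-12 to 0.0579). TAP2, at 319 and 315 against 207 and 216 CPM, was lower (-0.58 ± 0.07, adjusted p = 0.000284). HLA-F overlapped between the lines (0.40, interval -0.42 to 1.22) and changed sign to -0.36 without ρ0 control replicate 1, against 0.96 without replicate 2. TAP1 did not pass the test (0.31, adjusted p = 0.124), with 0.012 without ρ0 control replicate 1 and 0.61 without replicate 2, where it was called (adjusted p = 4.22e-09; range over alternatives 4.22e-09 to 0.84).

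The lines were also compared after ADI. HLA-B, HLA-C, HLA-F, B2M, TAP1, TAPBP and NLRC5 were higher in ρ0 cells and TAP2 lower, that is 7 and 1 of 9 members beside 32.9% and 33.5% of all tested genes. Of the 7, all but TAP1 passed the fold threshold, as 18.7% of all genes did upward. HLA-F reached 8.16-fold (3.03 ± 0.39, adjusted p = 0.000321), HLA-C 4.03-fold (2.01 ± 0.18, adjusted p = 5.69e-05), TAPBP 3.95-fold (1.98 ± 0.19, adjusted p = 8.2e-05) and HLA-B 3.24-fold (1.70 ± 0.19, adjusted p = 0.00016). B2M, NLRC5 and TAP1 were higher by 1.46, 1.44 and 0.91 on the log2 scale, and TAP2 was 1.96-fold lower. HLA-E was lower in both ρ0 libraries than in both parental ones before and after treatment, by small amounts that did not pass the test (-0.13, interval -0.29 to 0.03, and -0.08, interval -0.24 to 0.08). In control it was called lower in ρ0 cells with total counts (-0.23, adjusted p = 0.0255) and without ρ0 control replicate 1 (-0.12, adjusted p = 0.0172), over a range of 0.0172 to 0.461. After ADI it was called lower with limma-voom and 1 weight per group (-0.08, adjusted p = 0.0328; range 0.0328 to 0.92). The 8 calls after ADI do not involve the ρ0 control pair directly, and the same 8 were made in each fit that left out a library. All of these comparisons share libraries and are not independent of each other.

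**Figure D3:**
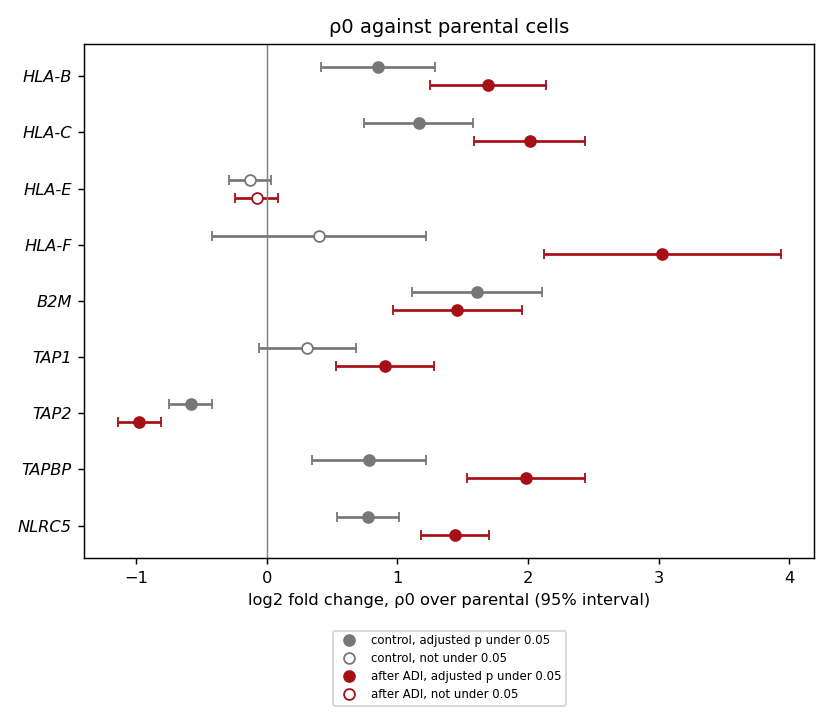
log2 fold change of each member in ρ0 over parental cells, in control (grey) and after ADI (red), with 95% intervals and filled points for an adjusted p under 0.05. After ADI the values ran from -0.97 for TAP2 to 3.03 for HLA-F, and HLA-E lay near 0 in both.

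The balance of the members within a library does not depend on scaling between libraries. HLA-E counts per HLA-B count were 1.04 and 1.01 in parental control and 1.60 and 1.53 after ADI, but 0.423 and 0.674 in ρ0 control and 0.456 and 0.461 after ADI. HLA-C per HLA-B was lower after ADI in both lines. It went from 0.315 and 0.329 to 0.266 and 0.269 in parental and from 0.395 and 0.408 to 0.328 and 0.338 in ρ0 cells. B2M per HLA-B was 1.34 in both parental control libraries and 1.14 and 1.17 after ADI. In ρ0 cells that ratio fell from 2.32 and 2.18 to 0.959 and 0.995, so that the light chain lost ground to the heavy chain there although the ρ0 control libraries differed in the level of both. TAP1 per TAP2 was 0.292 and 0.308 in parental control, 0.214 and 0.216 after ADI, 0.677 and 0.443 in ρ0 control and 0.802 and 0.781 after ADI. NLRC5 per HLA-B dropped in both lines, from 0.0588 and 0.0600 to 0.0174 and 0.0151 in parental and from 0.0459 and 0.0725 to 0.0139 and 0.0133 in ρ0 cells. Within each line, NLRC5 was lower after ADI and HLA-B was not. Between the lines, both were higher in ρ0 cells, in control and after ADI, and in parental cells TAPBP and HLA-F fell with NLRC5. How NLRC5 bears on these genes was not tested. No test was run on the ratios.

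Genes for the supply of peptides were read next. The immunoproteasome replaces catalytic subunits of the standard proteasome with PSMB8, PSMB9 and PSMB10, and PSME1 and PSME2 form its PA28 activator. In parental cells 4 of these 5 fell after ADI and none rose, beside 35.5% and 30.4% of all tested genes, with a median log2 fold change of -0.89 (-0.07 over all genes). PSMB9 dropped from 21.3 and 21.4 CPM to 0.950 and 1.06 CPM (-4.40, adjusted p = 1.99e-05), PSME1 by 1.29, PSMB10 by 0.89 and PSMB8 by 0.73 on the log2 scale, and PSME2 gave 0.25 (adjusted p = 0.127). The 3 standard subunits PSMB5, PSMB6 and PSMB7 all rose there, by 0.34, 0.40 and 0.55. In ρ0 cells PSMB9 alone of the 5 fell (-0.84, from 62.4 and 37.2 to 26.7 and 29.04 CPM), beside 22.1% of all tested genes. No standard subunit passed the test there. The responses differed between the lines for 4 of the 5 upward and for all 3 standard subunits downward, beside 21.6% and 18.8% of all tested genes. Counts of PSMB9 per count of PSMB6, the subunit it replaces, were 0.204 and 0.186 in parental control, 0.00660 and 0.00733 after ADI, 0.395 and 0.279 in ρ0 control and 0.197 and 0.207 after ADI. No immunoproteasome gene was lower in ρ0 than in parental cells: 4 of the 5 were higher in control (30.5% of all tested genes) and all 5 after ADI (32.9%).

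**Figure D4:**
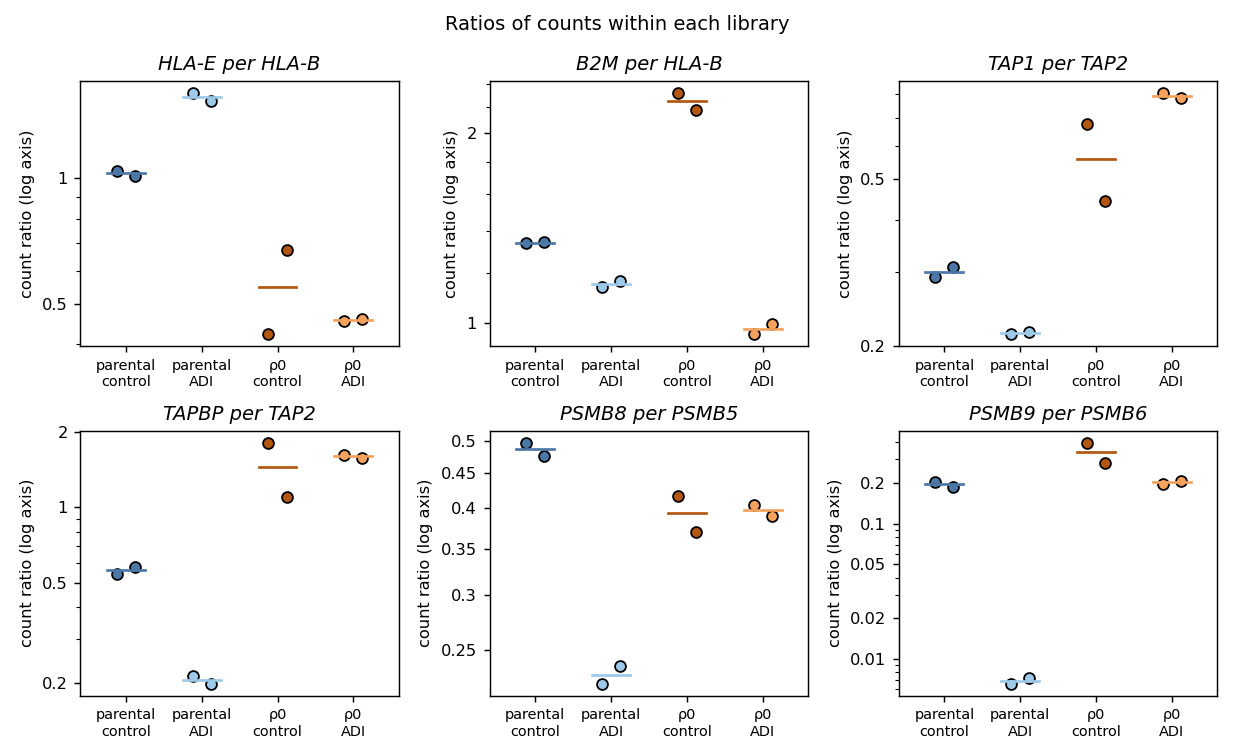
Ratios of raw counts within each library (points, log axis) with the group mean (line), for HLA-E per HLA-B, B2M per HLA-B, TAP1 per TAP2, TAPBP per TAP2, PSMB8 per PSMB5 and PSMB9 per PSMB6. PSMB9 per PSMB6 was 0.204 and 0.186 in parental control libraries and under 0.01 in both parental libraries after ADI, and B2M per HLA-B in ρ0 cells went from above 2 to below 1.

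Among 7 genes for peptide trimming and assembly, CANX rose and ERAP2, CALR and TAPBPL fell in parental cells. This 1 rise and these 3 falls stand beside 30.4% and 35.5% of all tested genes. ERAP2, an aminopeptidase that trims peptides in the endoplasmic reticulum, went from 7.44 and 6.67 CPM to 0.832 and 0.709 CPM (-3.19, adjusted p = 3.59e-05). CANX (calnexin), a chaperone of new heavy chains, rose by 0.51 in parental and by 0.69 in ρ0 cells. In ρ0 cells ERAP1 rose as well (0.65), and ERAP2 fell (-0.68), where 19.2% of all tested genes rose and 22.1% fell. ERAP1 and ERAP2 differed between the responses, by 1.03 and 2.51, and no member of this list did so downward. The shares of all tested genes were 21.6% upward and 18.8% downward. Without a ρ0 control library the parental count changed from 3 to 5 falls, and without any other library to 1 or 2.

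The partners of NLRC5 did not move as one. Of 8 enhanceosome genes, NFYB (1.23) and ATF1 (0.56) rose in parental cells and RFX5 (-0.93) and NFYA (-0.55) fell. These 2 rises and 2 falls stand beside larger shares of all tested genes, 30.4% and 35.5%. ATF1 alone passed the test in ρ0 cells (0.29, adjusted p = 0.0402), where 19.2% of all tested genes rose. That call was lost in each fit without a library other than ρ0 control. RFX5, a subunit of the RFX factor that binds the X1 box, went from 101 CPM in each parental control library to 52.4 and 54.2 CPM. Its response differed between the lines by 0.85, that of NFYA by 0.81 and that of NFYB by -0.96. Over all tested genes, 21.6% differed upward and 18.8% downward.

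Of 12 genes of interferon and NF-κB signalling, 11 were tested, since IRF9 is listed at 0 counts in every library. In parental cells 3 rose and 3 fell, near the 30.4% and 35.5% of all tested genes. IRF1, a transcription factor of class I promoters, rose by 1.49 (11.6 and 12.1 to 32.9 and 33.5 CPM, adjusted p = 3.77e-05) and RELA, a subunit of NF-κB, by 1.17, whereas STAT2 fell by 1.17. In ρ0 cells 4 rose, with IRF1 in front (0.55, from 117 and 93.7 to 156 and 151 CPM), and 7 did not pass the test (19.2% of all tested genes rose there). IRF1 was 3.15 higher on the log2 scale in ρ0 than in parental control cells, but the list as a whole was split there. In control, 3 of the 11 were higher and 4 lower in ρ0 cells, beside 30.5% and 31.8% of all tested genes. After ADI, 7 were higher and 2 lower, beside 32.9% and 33.5%.

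Interferon-stimulated genes fell in parental cells, 9 of 12 past the test and none higher, beside 35.5% and 30.4% of all tested genes. GBP2, a guanylate-binding protein, went from 40.1 and 43.0 CPM to 0.317 and 0.425 CPM (-6.78, adjusted p = 3.1e-05), and ISG15, which gave 0.82, did not pass the test. The number that fell was 5 to 7 when a library other than a ρ0 control was left out, and 10 without either of those, where 1 rose. In ρ0 cells 2 of 12 fell and none rose, and here the ρ0 control pair decided the result: without replicate 1, 7 rose and 2 fell, without replicate 2 all 12 fell, and without any other library 1 fell. In control, 9 of the 12 were higher in ρ0 cells, a number that changed with the library left out. After ADI all 12 were higher there. Between the lines, high interferon-stimulated transcripts thus accompanied high HLA-B, HLA-C, B2M and TAPBP. After ADI in parental cells, the 12 had a median log2 fold change of -3.58, and TAPBP fell too (-1.17). HLA-B, HLA-C and B2M gave 0.18, -0.09 and -0.04 there, without passing the test. In ρ0 cells the median of the 12 was -0.98, a value that rests on the ρ0 control pair, while HLA-B and HLA-C rose. The part of either set of genes in the other was not tested. Over all tested genes, 22.1% fell and 19.2% rose after ADI in ρ0 cells. Between the lines, 30.5% of all tested genes were higher in ρ0 cells in control and 32.9% after ADI.

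Class II presentation shares the enhanceosome with class I and is switched on by CIITA. In parental cells it fell entirely: 9 of 9 genes, each past the fold threshold, beside 22.1% of all tested genes. CD74, the invariant chain, went from 165 and 162 CPM to 4.67 and 5.53 CPM (adjusted p = 1.12e-05), and HLA-DPB1 from 21.5 and 23.0 CPM to 0.594 and 0.674 CPM (-5.12, adjusted p = 9.36e-06). In ρ0 cells 4 fell, with HLA-DMB in front (-1.90), and none rose, beside 22.1% and 19.2% of all tested genes. Unlike class I, 7 of the 9 were lower in ρ0 than in parental control cells, beside 31.8% of all tested genes. HLA-DRA, for example, was at 179 and 189 CPM in parental against 14.7 and 5.37 CPM in ρ0 control libraries. HLA-DQA1 had no count in any ρ0 library and at most 0.452 CPM in parental control. After ADI, 3 of the 9 were higher and 2 lower in ρ0 than in parental cells, beside 32.9% and 33.5% of all tested genes.

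Of 10 class I-like genes and NKG2D ligands 9 were tested (ULBP1 was below the filter). In parental cells ULBP3 (1.37) and ULBP2 (1.34) rose, and HFE (-3.02), RAET1G, CD1D and MICB fell. RAET1G and CD1D were low already in control, at no more than 1.63 and 1.32 CPM. Stress ligands seen by NK cells moved both ways, with ULBP2 and ULBP3 up and MICB and RAET1G down. These 2 rises and 4 falls stand beside 30.4% and 35.5% of all tested genes. By contrast, ULBP3 alone passed the test in ρ0 cells, downward (-0.59), where 22.1% of all tested genes fell. CD274, which encodes the checkpoint ligand PD-L1, rose in parental cells from 47.5 and 45.4 to 155 and 159 CPM (1.75, adjusted p = 1.28e-05) and had 40.8 and 49.0 CPM before and 36.8 and 37.0 CPM after ADI in ρ0 cells (-0.28, adjusted p = 0.0561). The difference of these responses was -2.04 (adjusted p = 0.000199). CD47 fell in parental cells (-1.40). In ρ0 cells PDCD1LG2 fell (-0.88) and CD47 gave -0.35 (adjusted p = 0.0997).

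Of the 4 other class I symbols named here, HLA-G, HLA-H, HLA-J and HLA-L, none passed the test in parental cells, and HLA-H, a pseudogene close in sequence to the classical chains, rose in ρ0 cells (1.02, adjusted p = 0.00796; 24.4 and 16.4 to 37.3 and 45.5 CPM). How reads that match several class I genes were counted is not given in the sources used here, so that small differences between HLA-B, HLA-C and HLA-H are uncertain. Annotated exons of HLA-B and HLA-C also overlap on the same strand, and those of TAP1 overlap PSMB8-AS1 on the opposite strand.

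The counts over these lists in ρ0 cells moved with the ρ0 control library used. Without ρ0 control replicate 1, 3 immunoproteasome genes rose and 1 fell after ADI, 5 trimming and assembly genes rose and 1 fell, 9 interferon and NF-κB genes rose and 0 fell, and 2 class II genes rose and 4 fell. Without replicate 2, no immunoproteasome gene rose and 2 fell, 2 trimming and assembly genes rose and 3 fell, 7 interferon and NF-κB genes rose and 1 fell, and no class II gene rose and 8 fell. Without either ρ0 ADI library no immunoproteasome gene and 1 class II gene fell. In parental cells, the falls of 4 immunoproteasome genes and of at least 8 class II genes were found whichever library was left out, and the number of standard subunits that rose was 1 to 3.

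**Figure D5:**
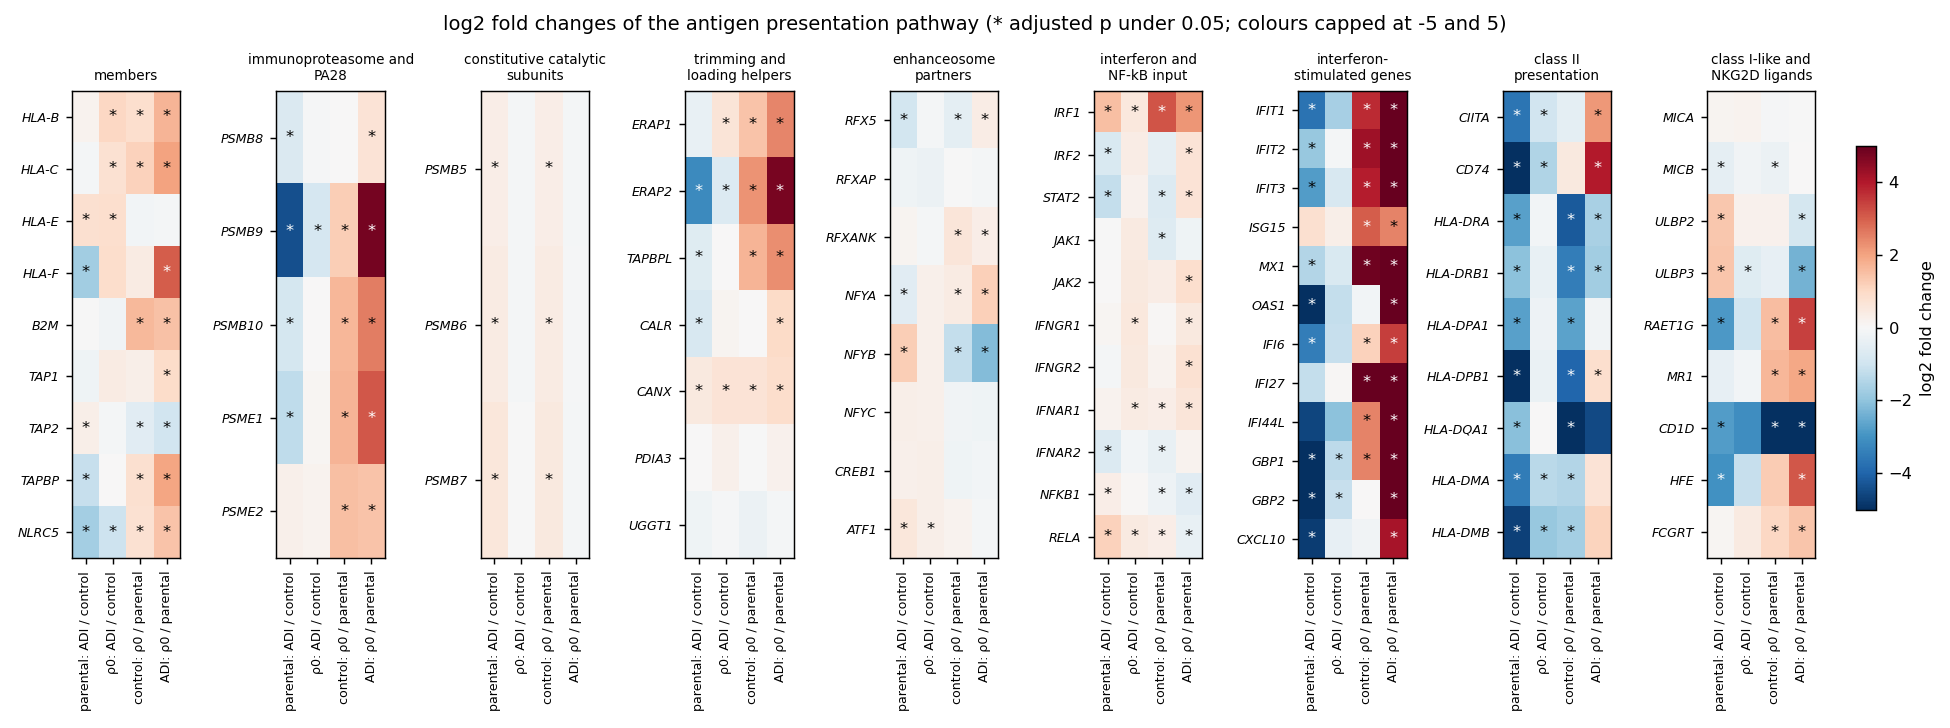
log2 fold changes (colour, capped at -5 and 5) of the 9 members and of 8 lists of the presentation pathway in 4 comparisons, with a star for an adjusted p under 0.05. In the first column the class II genes, most interferon-stimulated genes and PSMB9 (-4.40) fell in parental cells, and the last column shows ρ0 above parental cells after ADI for all 12 interferon-stimulated genes.

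Other genes with a similar profile were ranked by Pearson r of log2 CPM over the 8 libraries, among 9941 tested genes with a mean of at least 10 CPM. HLA-B was closest to CDKN1B (0.998), a cell cycle inhibitor, then to TMEM50A, ZNF766, MIA3 and FBXO27 (each 0.991 or higher). B2M was closest to TCEAL9 (0.997), GALNT3, CLTC, COL18A1 and OASL (each 0.993 or higher), and NLRC5 to SYNPO (0.997), ACTN4, LOC407835, ZBED5-AS1 and RNF26 (each 0.996 or higher). Among the members, HLA-B followed HLA-C (0.973) and TAP1 (0.943), and ran against TAP2 (-0.84), while its r with NLRC5 was 0.258. NLRC5 gave 0.848 with TAPBP, 0.677 with HLA-F, 0.637 with B2M, 0.472 with TAP1 and 0.464 with HLA-C. With TAP2 and HLA-E it gave -0.718 and -0.825. The points are 4 groups of 2 libraries, and the values are descriptions without a test.

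Markers were read beside these results. The defining lymphocyte genes CD3E and MS4A1 had no count in any library, and PTPRC stayed at or below 0.452 CPM. CD68 was at 51.3 to 122 CPM and made up nearly all of the summed immune markers, which lay between 51.8 and 125 CPM, highest in ρ0 control replicate 1 and lowest in parental ADI. The 5 mesenchymal genes VIM, CD44, FN1, ZEB1 and AXL were at 63.9 CPM or more in every library, with VIM at 522 to 3635 CPM, and the luminal receptors ESR1 and PGR at no more than 0.180 and 0.0347 CPM. The lines differed in epithelial genes, with EPCAM at most 0.521 CPM in parental and at least 16.4 CPM in ρ0 cells, CDH1 at most 0.0709 and at least 4.31 CPM, and FOXA1 at least 7.35 and at most 0.135 CPM. ASS1, the enzyme that makes arginine from citrulline, was at 0.0396 to 0.300 CPM in parental and 6.35 to 23.1 CPM in ρ0 libraries. How these differences bear on class I levels between the lines was not tested. In RNA from whole cultures, fewer cells with a transcript and less transcript per cell cannot be told apart.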

How the data were processed

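RNA-seq read counts per gene symbol of 8 libraries (4 groups of 2) were analysed. The deposited table holds raw counts, without normalization. The submitters' processing notes name Bowtie, Partek and hg19 without a role; the counter, its handling of strand and multiply matching reads, and the annotation are not given in the sources used here. Gene coordinates are therefore not printed, and the promoter windows carry their own build. One class I gene and some genes of the context lists are not reported here.

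Counts were fitted in R 4.3.3 with edgeR 4.0.16 (filterByExpr, TMM, quasi-likelihood test) on all 8 libraries with 1 mean per group. The biological coefficient of variation was 12.4%, with 4 residual degrees of freedom and a prior of 3.40. P-values were adjusted by Benjamini-Hochberg over 15262 genes; the SE of a log2 fold change came from its size and the F statistic. A gene rose or fell at an adjusted p under 0.05; for a DEG, a log2 change past 1 in either direction was also needed. The test was checked on simulated counts with that 1 coefficient of variation for all genes and libraries. The check therefore does not cover groups of unequal spread, as found here. Depth was 25259503 to 31022155 counts, and with 2 libraries per group precision is set mainly by the spread between libraries.

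The members, the pathway lists and the motif patterns were chosen with earlier results of these data known. All members are named; of each list, the changed genes with the largest rise and fall are named with values, and other genes by their values. Alternatives were other scalings and filters, DESeq2 1.42.0, limma 3.58.1 (voom), a replicate block, fits to 1 line alone, leaving out each library, and median transcript lengths. Promoters came from RefSeq, transcript lengths and shared 50-base windows from GENCODE release 29; promoters of 7 members matched. Promoter pairs were aligned globally.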

Additional observations from a re-analysis of the deposited data

Results flagged for a closer look

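The following members were singled out because their response to ADI differed between the lines by the interaction test (edgeR's quasi-likelihood test, ρ0 minus parental log2 response, adjusted p under 0.05). HLA-F gave 2.63: it was lower in both parental libraries after ADI and higher in both ρ0 libraries. TAPBP gave 1.20, with a fall in parental cells and ρ0 values between those of its controls. HLA-C gave 0.85 and HLA-B 0.84, with rises in ρ0 cells. NLRC5 gave 0.67, with falls in both lines. TAP2 gave -0.39. Each difference includes the ρ0 control pair, whose libraries had a biological coefficient of variation of 25.1%, and the part of that pair in them was not tested beyond leaving out each of its libraries. No group had enough libraries to test for an outlying library.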

How the results depend on the processing

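Among the counts of members called, the following moved by more than 1.5 times. With the fold threshold, the members that rose numbered 0 in parental and 1 in ρ0 cells, those higher in ρ0 control 2 and those lower 0, and those lower in ρ0 cells after ADI 0. Upper quartile scaling left 1 member higher in parental cells and 0 lower in the interaction, and total counts left 1 higher in parental cells and 2 lower in ρ0 control. Limma-voom with 1 weight per group gave 5 members higher in ρ0 cells and 2 lower in ρ0 cells after ADI. Leaving out each library gave 1 to 3 members higher and 3 to 4 lower in parental cells, 2 to 7 higher and 1 to 3 lower in ρ0 cells, 1 to 7 higher and 0 to 2 lower in the interaction, 4 to 7 higher and 1 to 3 lower between the control lines, and 7 and 1 throughout after ADI. Directions turned for TAPBP in ρ0 cells with total counts (-0.044). They also turned when libraries were left out, over which the log2 fold change ran from -0.25 to 0.39 for TAPBP in ρ0 cells, from -0.50 to 0.23 for B2M in ρ0 cells and from -0.50 to 0.27 for B2M in the interaction, from -0.071 to 0.000248 for B2M in parental cells (6.79e-05 without ρ0 ADI replicate 1), and from -0.36 to 0.96 for HLA-F between the control lines. In ρ0 cells and between the control lines, both ends are the fits without 1 of the ρ0 control libraries. Beyond the library left out, the cause was not tested. Of single-gene values, 716 stayed on their side of the threshold, 31 became called in the same direction and 31 lost a call, 7 changed sign (4 of them past the threshold), and 7 levels moved with the transcript length.

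Same-numbered libraries did not deviate together over the tested genes (correlations of -0.0530 to 0.0386). This cannot decide whether the replicate numbers pair them. The libraries within parental ADI and within ρ0 ADI differed too little, with biological coefficients of variation of 2.29% and 1.84%. With the replicate number as a block, 2 members rose and 3 fell in parental cells, 3 and 1 in ρ0 cells, 5 and 1 in the interaction, 5 and 1 between the control lines and 7 and 1 after ADI, as without it, and over all genes 9896, 5915, 5731, 9298 and 9990 were called in these comparisons. With 2 libraries per group, effects smaller than the intervals given were not detectable.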
